A study of Mustela putorius furo with 6 samples.

Results

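In the developing ferret cortex, 83 genes had higher read counts in the germinal zone of the lateral sulcus than in that of the lateral gyrus. They were chosen by their measured levels in the same libraries that are described here. A level is given as CPM, the count of a gene divided by the total count of its library, times 1000000. A gene was taken when its mean over all 6 libraries was at least 10 CPM, its lowest sulcus value lay above its highest gyrus value, and the sulcus mean was at least 1.3 times the gyrus mean. The files list 32057 genes, of which 10351 reached the level of 10 CPM, and the 83 are 0.802% of these. The difference between the regions is therefore what defined the genes and is given below as a description without a test.

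The tissue was brain of wild-type ferrets (Mustela putorius furo), taken from the germinal zone at postnatal day 4 according to the series text. There were 3 libraries of the lateral gyrus and 3 of the lateral sulcus, numbered 1 to 3 in each region. Both groups had the same genotype, and no treatment is named. The labels do not say whether the libraries of a region came from separate animals or whether animals were pooled, so the spread between libraries may be partly technical.

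Gyri are the outward folds of the cortex and sulci are the grooves between them. Cortical neurons are born in germinal zones next to the ventricle, from radial glia that divide at the ventricular surface and from basal progenitors that divide further out. Basal progenitors include outer radial glia, which are abundant in species with a folded cortex and are known to be more numerous beneath prospective gyri than beneath prospective sulci. The ferret is used to study this because much of its folding takes place after birth.

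The libraries held 10931832 to 12344534 counts. Lateral sulcus library 3 stood furthest apart, and lateral gyrus library 3 came next. The counts of sulcus library 3 differed from those of the other 5 libraries by a chi-square of 17.8 to 62.9 per degree of freedom. The other 5 differed among themselves by 6.66 to 27.3. Sulcus library 3 was closest to gyrus library 3, at 17.8. Gyrus library 3 differed from the remaining libraries by 15.7 to 27.3, and those differed among themselves by 6.66 to 15.2. The 10 most abundant genes of sulcus library 3 held 3.70% of its counts, against 2.58% to 3.12% elsewhere. The count of genes that met the rule, the median ratio of the 83, the edgeR calls and some ratios are also given without it. The summed shares, the gaps between closest libraries and the coefficients of variation are not. The deposited identifiers could not be paired with symbols, so the functions of the 83 genes are not given here. For the same reason no cell type marker or pathway could be measured, and the labelled region could not be checked against markers. In bulk tissue a lower level can come from fewer cells of a type or from less RNA per cell, and these cannot be told apart.

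The 83 genes differed moderately between the regions. The ratio of the sulcus mean to the gyrus mean ran from 1.303 to 3.06, with a median of 1.502 and quartiles of 1.36 and 1.69. The ratio was at least 1.5 in 42 genes and at least 2 in 7. Over all 10351 genes the median ratio was 0.991, with quartiles of 0.919 and 1.06. Together the 83 genes took 0.380% ± 0.0296 of the counts of a gyrus library and 0.577% ± 0.0161 of those of a sulcus library (SD, n = 3 each). In the gyrus the libraries held 0.372%, 0.356% and 0.413% (exact 95% intervals of 0.369% to 0.376%, 0.352% to 0.359% and 0.409% to 0.417%). In the sulcus they held 0.565%, 0.595% and 0.571% (0.560% to 0.569%, 0.591% to 0.5999% and 0.567% to 0.576%). These intervals cover counting error only. The gap between the regions was wider than the spread within either. The choice of genes forces every sulcus share above every gyrus share, with a ratio of means of at least 1.3. It favours a wide gap against the spread without fixing its size, so the gap is a description and not further support.

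**Figure D1:**
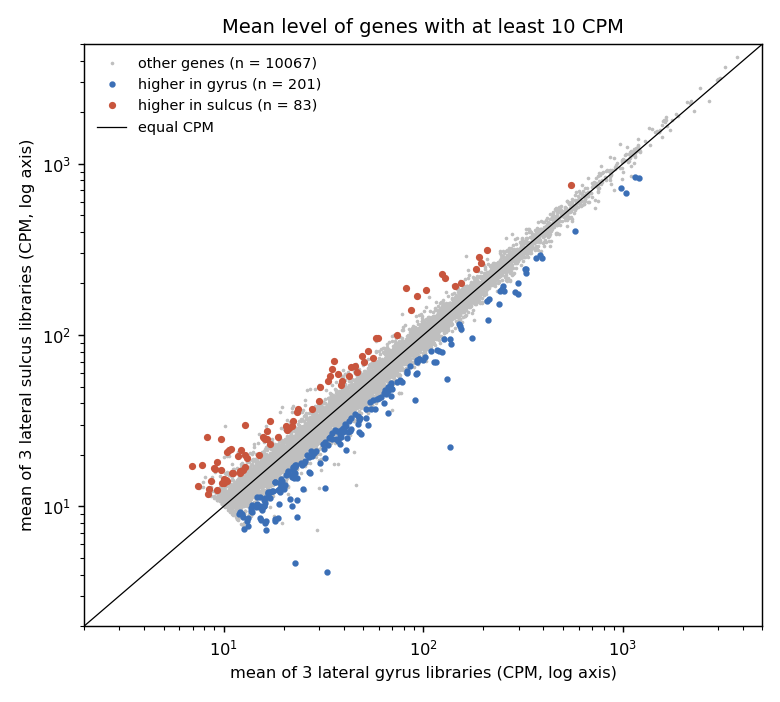
Mean CPM of each gene over the 3 lateral gyrus libraries (horizontal, log axis) against its mean over the 3 lateral sulcus libraries (vertical, log axis), for the 10351 genes with at least 10 CPM. The 83 genes higher in the sulcus (red) lie above the line of equal CPM by 1.303 to 3.06 times, and the 201 genes that meet the mirrored rule (blue) lie below it.

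The mirrored rule, with the gyrus above the sulcus, took 201 genes, 1.94% of the 10351. With no minimum ratio, 263 genes (2.54%) had all sulcus values above all gyrus values, and 466 (4.50%) had all gyrus values above all sulcus values. The excess on the gyrus side became smaller with other scaling. It was 165 genes against 96 with TMM, a scaling that estimates a common shift between libraries from most genes, and 161 against 102 with DESeq2 size factors. The median log2 ratio of all genes at 10 CPM moved from -0.0134 to 0.011 and 0.0185 with these scalings. Of the 83 genes, 82 met the rule under all 3 scalings. Ratios were similar in size in both directions, with a median of 1.43 among the 201 genes against 1.502 among the 83. In the gyrus-higher set 14 genes reached a ratio of 2, against 7 in the sulcus-higher set, and the highest was 7.97.

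The 6 genes with the highest ratios shared 1 profile: sulcus library 2 was the highest sulcus library and sulcus library 3 the lowest in 6 of 6. This pattern was seen in the values and not fixed beforehand. ENSMPUG00000006155 had the highest ratio, 3.06. It measured 8.42, 7.19 and 9.15 CPM in gyrus libraries 1, 2 and 3, and 21.1, 42.7 and 12.1 CPM in sulcus libraries 1, 2 and 3. Sulcus library 2 held more than 3 times the CPM of sulcus library 3, which lay only 1.32 times above the highest gyrus library. The gyrus mean was 8.25 ± 0.992 CPM and the sulcus mean 25.3 ± 15.8 CPM (SD, n = 3 each). The fitted log2 difference of sulcus minus gyrus was 1.63 ± 0.422 (SE), and without sulcus library 2 it was 1.02 ± 0.290 (SE). Without sulcus library 3 this difference was 1.96 ± 0.305 (SE). The counts of the gene ran from 82 to 487, so counting error at its mean count was 7.25%. That was small beside the 62.3% coefficient of variation (SD over mean) among the sulcus libraries.

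Each gene is called by its rank of ratio from here on. Rank 2 measured 6.56, 12.7 and 9.79 CPM in gyrus libraries 1 to 3. In sulcus libraries 1 to 3 it measured 26.0, 35.7 and 12.9 CPM, so that sulcus library 3 barely cleared gyrus library 2. Rank 5 took far more reads with the same profile, at 76.2, 72.9 and 97.4 CPM in the gyrus and 176, 290 and 99.7 CPM in the sulcus. Its sulcus library 3 lay 1.02 times above gyrus library 3, while its sulcus library 2 lay 3.98 times above gyrus library 2. Rank 6 looked alike, at 6.32, 4.91 and 12.17 CPM in the gyrus and 16.4, 23.4 and 12.34 CPM in the sulcus. For the genes of ranks 3 and 4, the lowest sulcus value was 1.16 and 1.097 times the highest gyrus value. Leaving out sulcus library 2 lowered the ratio of the gene of rank 1 to 2.01, and that of the gene of rank 5 to 1.68. Without sulcus library 3 these ratios rose to 3.86 and 2.84.

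**Figure D2:**
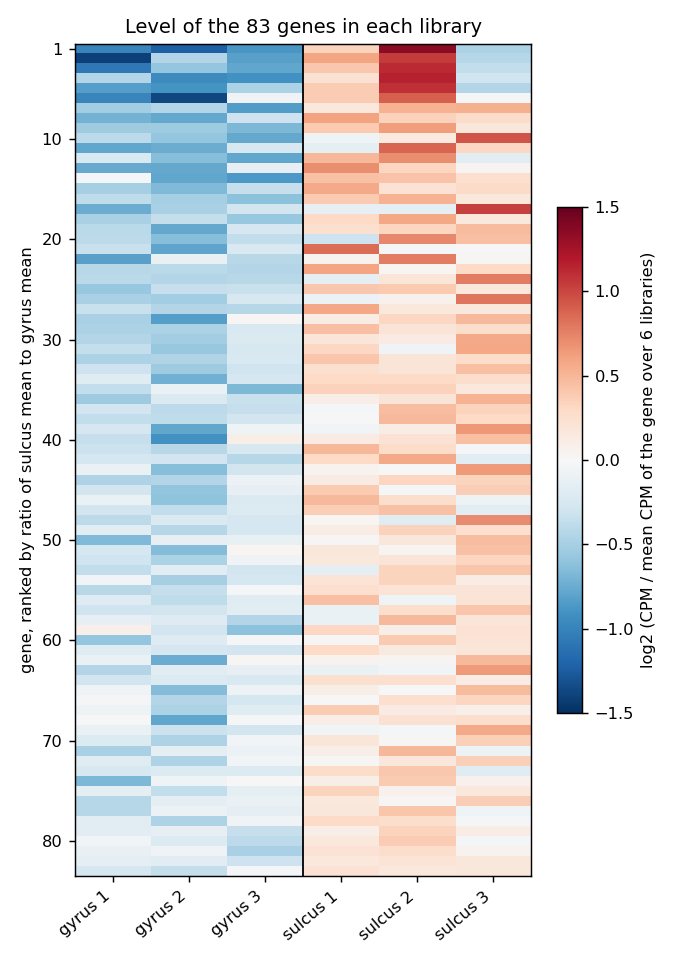
Level of each of the 83 genes (rows, ordered by ratio, highest at the top) in each library (columns), as log2 of its CPM over its mean CPM across the 6 libraries. The 6 topmost genes are darkest in sulcus library 2 and pale in sulcus library 3, and further down no sulcus library leads throughout.

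The genes of ranks 7, 8 and 9 had about the same ratio and were well apart from the gyrus in all sulcus libraries. The gene of rank 9 measured 10.8, 10.8 and 9.79 CPM in the gyrus and 20.4, 24.1 and 17.5 CPM in the sulcus. Rank 7 measured 11.1, 11.7 and 8.96 CPM in the gyrus and 17.8, 23.0 and 23.1 CPM in the sulcus. Rank 8 measured 9.96, 9.55 and 13.2 CPM in the gyrus and 24.7, 20.8 and 19.7 CPM in the sulcus. These 3 had the widest gaps of all 83, with the lowest sulcus library 1.62, 1.52 and 1.49 times above the highest gyrus library for ranks 9, 7 and 8. Their ratios of means were 1.98, 2.01 and 2.00, and the lowest value with any 1 library left out was 1.82.

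A further group of 3, ranks 15, 16 and 18, joined a clear gap with many reads. The gene of rank 15 measured 93.1, 82.7 and 103 CPM in the gyrus and 194, 153 and 160.0 CPM in the sulcus. Rank 16 measured 134, 124 and 114 CPM in the gyrus and 229, 252 and 196 CPM in the sulcus. Rank 18 measured 102, 112 and 96.6 CPM in the gyrus and 176, 214 and 159.8 CPM in the sulcus. Their lowest sulcus libraries lay 1.49, 1.46 and 1.43 times above their highest gyrus libraries. With 944 counts or more in every library, the exact 95% counting intervals of these gaps started at 1.38, 1.37 and 1.33. The rule required a gap, so these intervals describe counting error and are not a test.

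In other genes sulcus library 3 was the highest. The gene of rank 10 measured 40.7, 35.7 and 31.2 CPM in the gyrus and 51.0, 59.04 and 102 CPM in the sulcus. Rank 17 measured 29.2, 35.1 and 40.6 CPM in the gyrus and 45.1, 44.7 and 100.3 CPM in the sulcus. Rank 24 was nearly flat in the gyrus, at 129, 126 and 128 CPM, and measured 156, 194 and 292 CPM in the sulcus. Without sulcus library 3 the ratios of ranks 10, 17 and 24 were 1.53, 1.28 and 1.37, and that of rank 17 no longer met the rule. Rank 21 is an example with sulcus library 1 on top, at 36.2, 26.6 and 38.97 CPM in the gyrus and 81.7, 45.3 and 46.0 CPM in the sulcus.

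**Figure D3:**
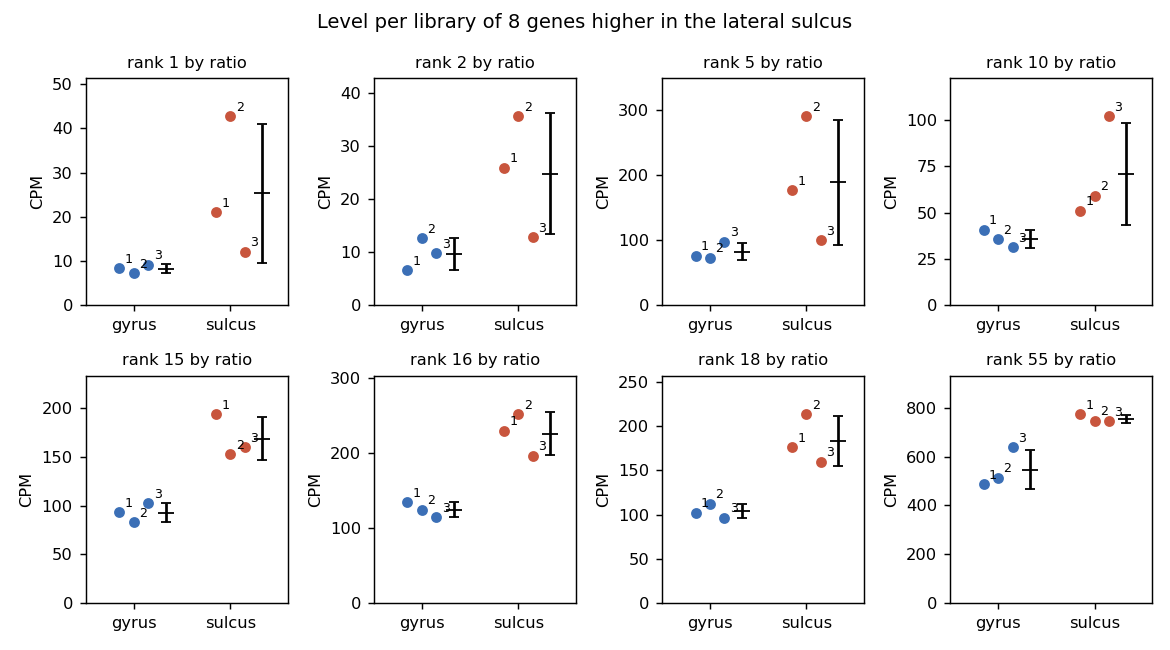
CPM per library of 8 of the 83 genes, by rank of ratio, each panel with its own axis from 0. Points are libraries with their number, and the black mark is the mean with its SD (n = 3); in ranks 1, 2 and 5 sulcus library 3 lies near the gyrus values, in rank 10 it is the highest, and in ranks 15, 16, 18 and 55 the 3 sulcus libraries lie closer together.

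ENSMPUG00000000801 took the most reads of the 83 genes. CPM is not corrected for gene length, so this is a rank in reads and not in transcript number. The gene measured 488, 514 and 639 CPM in gyrus libraries 1, 2 and 3, and 775, 748 and 746 CPM in sulcus libraries 1, 2 and 3. The sulcus libraries had a coefficient of variation of 2.17%, while gyrus library 3 lay above the other gyrus libraries. The gyrus mean was 547 ± 80.9 CPM and the sulcus mean 756 ± 16.4 CPM (SD, n = 3 each), a ratio of 1.38. The fitted log2 difference of sulcus minus gyrus was 0.49 ± 0.129 (SE). Without this gene the remaining 82 took 0.326% ± 0.0226 of gyrus counts and 0.502% ± 0.0172 of sulcus counts (SD, n = 3 each).

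The next genes by reads had ratios of 1.497 and 1.504. Second in reads, rank 44 by ratio measured 189, 193 and 246 CPM in the gyrus and 285, 326 and 329 CPM in the sulcus. After it in reads came rank 41, which measured 190.3, 178 and 200.4 CPM in the gyrus and 334, 287 and 235 CPM in the sulcus. In both, the lowest sulcus library lay 1.16 and 1.17 times above the highest gyrus library. By mean CPM the 83 genes ran from 10.1 to 652 with a median of 24.4, below the median of 47.7 over all 10351 genes. The 201 gyrus-higher genes had a median of 30.8 CPM. Counting error alone gave a coefficient of variation with a median of 6.03% among the 83 genes and reached 9.37%.

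Genes that failed only the ratio, only the level or only the overlap criterion were numerous, counted at any distance from the limit. Lowering the level to 5 CPM gave 116 genes in all, and lowering the ratio to 1.2 gave 121. By ratio, the last gene inside had 1.303 and the first outside 1.296. Among genes that met the other criteria, 180 had a ratio below 1.3. By level, the last inside had 10.1 CPM and the first outside 9.56 CPM, and 311 genes below 10 CPM met the other criteria. By overlap, the closest libraries of the tightest gene inside had a ratio of 1.01, and those of the first gene outside 0.9995. A further 194 genes met the other criteria with overlapping values.

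The gap between the regions was narrow in many of the 83 genes. The lowest sulcus library lay above the highest gyrus library by a median of 1.102 times, with a range of 1.01 to 1.62. It was under 1.1 times in 41 genes and at least 1.3 times in 15. The exact 95% interval for the ratio of these closest libraries, from their counts alone, held 1 in 56 genes and lay above 1 in 27. In the 56 the counts alone did not separate those libraries. The rule required this ratio to be above 1 between libraries picked as the extremes. The 95% level therefore does not hold for them, and the split into 56 and 27 is a description and not a test. The library that set the upper edge of the gyrus was gyrus library 3 in 43 genes (51.8%, against 34.6% of all 10351 genes). The lower edge of the sulcus was set by sulcus library 3 in 33 genes (39.8%, against 49.3%), by sulcus library 1 in 28 (33.7%, against 19.9%) and by sulcus library 2 in 22 (26.5%, against 30.7%).

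**Figure D4:**
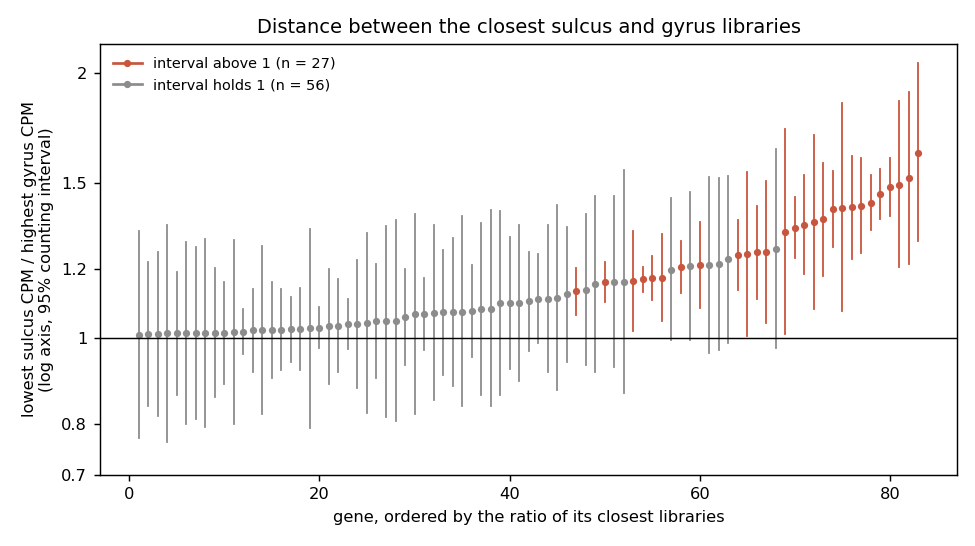
Ratio of the lowest sulcus CPM to the highest gyrus CPM for each of the 83 genes (log axis), ordered by that ratio, with the exact 95% interval from the counts of those libraries. The 27 genes in red have an interval above 1 and the 56 in grey have an interval that holds 1. The rule required every ratio to be above 1, so the intervals show counting error and are not a test.

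The genes fell into similar numbers by which sulcus library was the highest. Sulcus library 1 was highest in 23 genes (27.7%, against 35.8% of all 10351 genes), library 2 in 30 (36.1%, against 29.9%) and library 3 in 30 (36.1%, against 34.3%). Where library 1 was highest, libraries 1, 2 and 3 lay at a median of 1.72, 1.47 and 1.44 times the gyrus mean. Where library 2 was highest they lay at 1.39, 1.76 and 1.34 times, and where library 3 was highest at 1.29, 1.37 and 1.751 times. The first of these groups ended at a ratio of 2.00 and the last at 2.01, while the group led by library 2 held the 6 genes above them. Of the 20 genes with the highest ratios, 12 had library 2 on top and 13 had library 3 at the bottom. The spread among sulcus libraries had a median coefficient of variation of 16.02%, and that among gyrus libraries 13.7%. It was larger in the sulcus in 50 of the 83 genes (60.2%), against 66.9% of all 10351 genes and 68.7% of the 201 gyrus-higher genes.

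Same-numbered libraries may come from the same animal, since the series text calls the regions paired and numbers 2 and 3 go together in the data. The ratio of sulcus to gyrus was therefore also taken within each number. Number 1 is less certain. After the region means were removed, sulcus library 1 correlated across the 10351 genes at 0.44 with gyrus library 2 and 0.23 with gyrus library 1. Every ratio was above 1, as the lack of overlap requires. The median ratio was 1.49 within number 1, 1.61 within number 2 and 1.41 within number 3, where all 10351 genes had medians of 1.00, 0.995 and 0.960. A ratio of at least 1.3 was reached by 59 genes within number 1, 74 within number 2 and 59 within number 3. All 3 ratios reached 1.3 in 33 genes and 1.5 in 10 genes. In 43 genes 2 of the 3 reached it, and in 7 genes 1 did. Number 2 gave the largest ratio in 42 genes, number 1 in 22 and number 3 in 19, while number 3 gave the smallest in 40. Within a gene the largest ratio was a median of 1.45 times the smallest and at most 4.71 times.

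**Figure D5:**
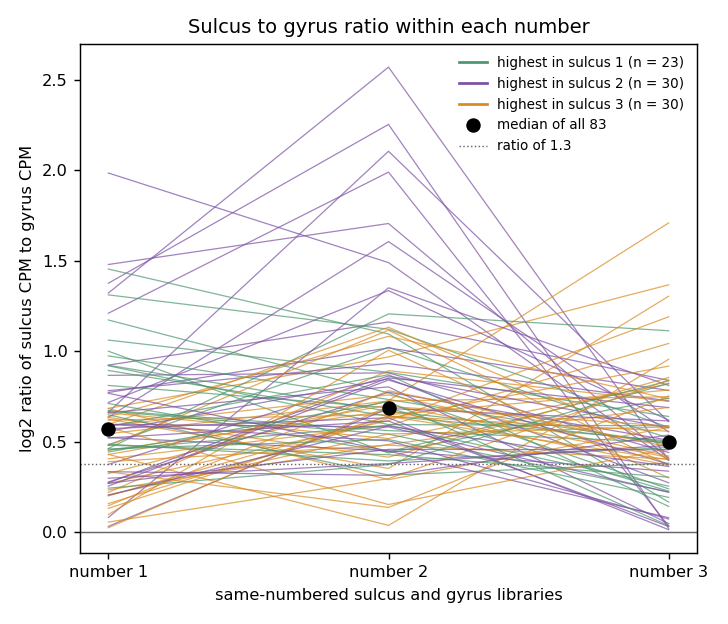
Log2 ratio of sulcus CPM to gyrus CPM between same-numbered libraries for each of the 83 genes (lines), coloured by the sulcus library in which the gene was highest. Black points are the medians over the 83 genes (ratios of 1.49, 1.61 and 1.41), and the dotted line marks a ratio of 1.3; the steep lines that peak at number 2 belong to genes highest in sulcus library 2.

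The number of a library had less weight in these genes than in others. On log2 values (CPM plus 2), the region held a median of 65.3% of a gene's variance, the number 18.1% and the remainder 10.3%. Over all 10351 genes the medians were 8.17%, 65.7% and 17.1%, and over the 201 gyrus-higher genes 67.4%, 15.3% and 13.4%. A gene that varies strongly with the number can hardly meet the rule, so these shares follow from it. After the region means were removed, the deviations of same-numbered gyrus and sulcus libraries correlated across the 83 genes at 0.10, 0.25 and 0.11 for numbers 1, 2 and 3. Over the 10351 genes the values were 0.23, 0.73 and 0.77. The rule disfavours genes with a strong deviation shared by number, so it also favours lower correlations among the 83. These correlations run across genes of the same libraries, so the genes are not independent replicates.

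Leaving out libraries changed which genes met the rule. Of the 83, 49 kept a ratio of at least 1.3 whichever library was left out, and 34 fell below it in at least 1 case. Without sulcus library 3, 166 genes met the rule, including 66 of the 83. Without sulcus library 1 or 2 it was 152 and 138 genes, including 75 and 69. Without gyrus library 1, 2 or 3 it was 131, 100 and 192 genes, including 75, 70 and 77. A rule on fewer libraries is easier to meet, so the larger counts follow from its construction. Without both libraries numbered 3, 194 genes met it, including 70 of the 83. The median ratio of the 83 genes was 1.43 without sulcus library 3 and ran from 1.43 to 1.55 over all libraries left out.

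edgeR's quasi-likelihood test over 14391 genes used the same contrast as the rule, so its calls are printed beside those for all genes and nothing is read from them. Without the pairing it called 0 of the 83 genes higher in the sulcus at an adjusted p under 0.05, and 0% of all genes tested. At an unadjusted p under 0.05 it had 67 of the 83 genes, and 162 genes in all (1.13%). With the replicate number as a block it called 3 of the 83, the genes of ranks 15, 16 and 18, and these were all its calls in that direction (0.0208%). At an unadjusted p under 0.05 the blocked test had 81 of the 83, and 541 genes in all (3.76%). DESeq2 called 11 of the 83 without the block, among 13 genes in all (0.0904% of 14387 tested), and 25 with it, among 36 (0.266% of 13554). The 11 were the genes of ranks 7, 8, 9, 15, 16, 18, 25, 27, 29, 32 and 33, so 0 of the 6 highest ratios were among them. The 25 with the block included 3 of those 6, the genes of ranks 2, 3 and 4, and also ENSMPUG00000000801 (rank 55). Without both libraries numbered 2, the blocked edgeR test called 0 of the 83 genes and 0 genes in all. It called 43 of the 83 among 297 genes without those numbered 1, and 30 among 57 without those numbered 3. The number of genes tested in these refits is not given, so no share over all genes stands beside them.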

How the data were processed

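RNA was measured by sequencing in 6 libraries. The deposited values are raw counts per Ensembl ferret gene, taken as such because they are whole numbers with differing totals. Tools named in the submitters' processing notes, without roles, are HTSeq 0.6.0, Cuffnorm, Cufflinks 2.2.1, HISAT2 and Trimmomatic 0.33. Build, annotation and strand setting were not given in the sources used, so counts of overlapping genes and of near-identical copies are uncertain. The file of lateral sulcus library 3 alone ends its lines with carriage returns. The gene table used (ASM1176430v1.1) matched 0 of 32057 identifiers, so the gene lists prepared by symbol were not used and no sequence is printed.

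The rule used plain CPM. edgeR 4.0.16 (R 4.3.3) fitted 14391 genes kept by filterByExpr (minimum count of 10), scaled by TMM, with a quasi-likelihood test of sulcus against gyrus, 2-sided, Benjamini-Hochberg adjusted over all genes tested at 0.05. SE came from the fold change and F. DESeq2 1.42.0 and other scalings, filters and libraries left out were alternatives. The fits and the rule were run on simulated data with less spread between libraries than here and no effect of the library number. That checked the code and not how the methods perform on these data. Intervals are exact (Clopper-Pearson, 95%), and those of the closest libraries do not allow for their selection by the rule. A count of 0 (3 counts as the limit) allows up to 0.274 CPM in the smallest library.

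Deviations from region means (log2 of CPM plus 2, over 14391 genes) correlated at 0.21, 0.65 and 0.71 between gyrus and sulcus libraries numbered 1, 2 and 3. All 3 passed the limit of 0.1, but so did gyrus 2 with sulcus 1 at 0.37, so the limit does not single out same-numbered libraries. The numbers were used as pairs in the within-number ratios and the blocked fits only. The main fit had no block, and the printed log2 differences with their SE come from fits without it.

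The members and lists were chosen with earlier results of these data known. Only 2 genes are given by identifier, those with the highest ratio and the highest mean CPM; genes described by rank were picked after their values were seen.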

Additional observations from a re-analysis of the deposited data

How the results depend on the processing

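The count of 83 genes was 96 with TMM, 102 with DESeq2 size factors, 116 at a level of at least 5 CPM, 50 at 20 CPM, 121 at a ratio of at least 1.2 and 42 at 1.5. Leaving out single libraries gave 100 (gyrus 2) to 192 (gyrus 3) genes, and leaving out both libraries of a number, an alternative chosen after seeing the data, gave 141 to 194. The median ratio of the 83 genes, 1.502, ranged from 1.43 to 1.55 over its 11 alternatives, within the SD of 0.0981 between the numbers. Genes called higher in the sulcus by edgeR, 0 in all and 0 of the 83 (162 and 67 at an unadjusted p under 0.05), became 3 and 3 with the replicate block, 13 and 11 with DESeq2, and 36 and 25 with DESeq2 and the block (added after seeing the data). They were 0 with other scaling, without a filter, with the stricter filter and without any single library. With the block and without both libraries numbered 1, 2 or 3 (also added), edgeR called 297, 0 and 57 genes, of which 43, 0 and 30 were among the 83. The 3 blocked calls were kept by DESeq2 and without the libraries numbered 1 or 3, and lost without those numbered 2. The cause was not tested. Both genes printed by identifier stayed higher in the sulcus under all 16 alternatives. ENSMPUG00000000801 passed the threshold in 3 of them (adjusted p of 0.00202 with DESeq2 and the block, and 0.0243 and 0.000915 with edgeR's block without the libraries numbered 1 or 3). ENSMPUG00000006155 passed in 2 (0.00483 and 0.00152 with edgeR's block without those numbered 1 or 3). In the main edgeR fit, without the block, both genes had an adjusted p of 0.9999. Both were chosen by the same contrast, so nothing is read from these passes. The direction of the 83 genes could not turn when libraries were left out, since their values do not overlap. In 56 genes the counts alone did not separate the closest libraries, and these genes had few or many reads. The closest sulcus and gyrus libraries held 102 and 103 counts for rank 53, and 1099 and 1065 for rank 5. For rank 5 counting error was 2.55%, against a coefficient of variation of 50.7% among the sulcus libraries. Whether more depth would separate the closest libraries was not tested. No test of gene lists was run.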
